A study of Mus musculus with 16 samples.

Results

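Livers lacking the selenocysteine tRNA gene Trsp in hepatocytes, on a background of normal KEAP1, were compared with livers of the floxed genotype without Cre. These are 8 of the 16 libraries of the series, 4 labelled Trspfl/fl::AlbCre and 4 labelled Trspfl/fl, chosen by genotype label alone. All 8 mice were males of 20 days of age, all carried the floxed Trsp allele, and all had Keap1 without the engineered cysteine substitutions that the other 8 libraries carry. AlbCre is Cre recombinase under the albumin promoter, so hepatocytes delete Trsp while Kupffer, endothelial, stellate and blood cells of the same liver keep it. Total RNA of whole liver was depleted of ribosomal RNA and sequenced. The table has no row for Trsp itself, and the deletion was therefore not measured.

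Selenocysteine is inserted at UGA codons, which otherwise stop translation, by a dedicated tRNA that the Trsp gene encodes. Selenoproteins include glutathione peroxidases and thioredoxin reductases, which remove peroxides and reduce disulfides. KEAP1 holds the transcription factor NRF2 at a low level until its cysteines are modified. NRF2 then activates genes for glutathione synthesis and conjugation, quinone reduction, glucuronidation, NADPH supply and efflux.

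Every value is on the deposited scale, log2(normalized count + 4), unless reads are named. Recovered reads numbered 12455930 to 16350132 in Trspfl/fl and 11386669 to 16241125 in Trspfl/fl::AlbCre. Calls required a change of over 2-fold in either direction and a limma adjusted p under 0.01 (Benjamini-Hochberg, 15781 genes tested), and "rose" and "fell" are used of called genes only. All 10 hepatocyte markers had reads in the libraries, and their summed normalized count was 1658738 to 2037989 in Trspfl/fl and 1676962 to 1991077 in Trspfl/fl::AlbCre.

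Few of the genes tested were called. In Trspfl/fl::AlbCre, 30 genes rose (0.190% of those tested) and 4 fell (0.0253%). The groups did not overlap for any of the 34. Over all genes tested the groups were apart with the knockout higher for 3.40% and with the knockout lower for 2.62%, and 1741 genes had an unadjusted p under 0.05. Of those tested, 0.247% had an adjusted p under 0.01 at any fold, which adds 3 higher and 2 lower genes with less than a 2-fold change.

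Selected selenoprotein genes are shown first by the codon that the missing tRNA reads. In the 27 bases around it, printed 5′ to 3′ on the coding strand from GRCm38, the capitals mark the selenocysteine codon itself. Gpx1 and Selenow are the called genes, Selenot passed the p-value threshold at less than 2-fold, and Gpx4 and Txnrd1 are shown because their transcripts were close to the control level.
Gpx1: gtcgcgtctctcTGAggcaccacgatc
Selenow: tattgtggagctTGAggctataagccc
Selenot: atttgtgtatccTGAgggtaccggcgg
Gpx4: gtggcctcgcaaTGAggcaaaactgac
Txnrd1: cagtctggctgcTGAggttaagcccca
These codons lie in coding exons at chr9:108339451-108339453 (Gpx1, plus strand), chr7:15920464-15920466 (Selenow, minus strand), chr3:58585238-58585240 (Selenot, plus strand), chr10:80054737-80054739 (Gpx4, plus strand) and chr10:82896037-82896039 (Txnrd1, plus strand). They are codon 47 in Gpx1, 13 in Selenow, 49 in Selenot, 73 in Gpx4 and 498 in Txnrd1, counted from the start codon. In Txnrd1 only 1 codon of the coding sequence follows it, whereas 154 follow that of Gpx1.

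Of 24 selenoprotein genes, 23 were in the table and 21 passed the filter on low values. Of these, 2 fell, none rose, and 9 had groups apart with the knockout lower. Their median log2 fold change was -0.57, against -0.01 over all genes tested. Gpx1 (ENSMUSG00000063856), the cytosolic glutathione peroxidase, was at 14.04, 14.20, 13.09 and 13.91 in the Trspfl/fl libraries and at 11.99, 11.66, 11.71 and 11.43 in Trspfl/fl::AlbCre. Gpx1 fell by 2.11 on the log2 scale (standard error 0.21, limma adjusted p = 6.2e-05). Selenow (ENSMUSG00000041571), a small thioredoxin-fold protein, was at 8.78, 8.83, 9.31 and 9.07 in the controls and at 7.48, 7.35, 7.90 and 7.72 in the knockouts, a change of -1.39 on the log2 scale (standard error 0.14, limma adjusted p = 8.2e-05). Every knockout library was below every control library for both genes.

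Selenot, an endoplasmic reticulum selenoprotein, passed the p-value threshold (limma adjusted p = 0.00099) at -0.83 on the log2 scale. Selenop, the selenium transport protein secreted by hepatocytes, was at 16.43 to 16.59 in the controls and at 15.32 to 15.55 in the knockouts. Its groups were apart, with a change of -1.01 on the log2 scale (standard error 0.18) and a limma adjusted p of 0.016, outside the threshold. It was called (limma adjusted p = 0.0042) when Keap1C226SC613Shomo::Trspfl/fl::AlbCre replicate 1, a library of another genotype whose Xist level goes against its male label (14.71, against 4.59 to 5.81 in the other 15 libraries), was left out of the pooled spread. Selenop was also called with limma voom. The mitochondrial thioredoxin reductase gene Txnrd2 had -0.69 (limma adjusted p = 0.013). Selenoh, a nuclear selenoprotein, was at 6.69 to 6.79 in the controls and at 5.26, 4.40, 5.90 and 5.68 in the knockouts (-1.42, limma adjusted p = 0.054), so the knockout mice differed among themselves by more than the controls did.

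Gpx4, the peroxidase of lipid hydroperoxides, was at 10.94, 11.07, 10.95 and 10.84 in the controls and at 10.86, 10.80, 11.08 and 10.93 in the knockouts. These groups overlapped, with a change of -0.03 on the log2 scale (standard error 0.10, limma adjusted p = 0.93). Txnrd1, the cytosolic thioredoxin reductase, which NRF2 also regulates, had -0.26 (limma adjusted p = 0.55). Sephs2, which makes the selenium donor for the tRNA, had the highest value of the list at 0.24 (limma adjusted p = 0.65). The liver deiodinase gene Dio1 varied most: it was at 10.34, 10.37, 7.64 and 10.71 in the controls and at 7.69, 6.15, 9.46 and 9.27 in the knockouts. Trspfl/fl replicate 3 therefore lay within the knockout range, and Dio1 did not pass (-1.62, limma adjusted p = 0.37).

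The selenoprotein genes also differed in where the codon lies. A stop codon well upstream of the last exon junction is a known trigger of nonsense-mediated decay, and the distance was read from GENCODE M21 transcripts. In 12 tested genes the first selenocysteine codon lies at least 50 bases before the last junction. All 12 had a log2 fold change below 0, with a median of -0.76 and a range from -2.11 to -0.03. The other 9, whose codon is nearer, after the junction or in a gene of a single exon, had a median of -0.26, with 6 of 9 below 0 and a range from -0.80 to 0.24. The division is not clean. Gpx4, at -0.03, has its codon 342 bases before the junction. In the other set Selenok was at -0.80 with its codon 5 bases before the junction, and Txnrd3 at -0.62 with its codon after it, neither of them called. The division is given without a test, and decay was not measured. The 9 genes tested of the machinery that makes and inserts selenocysteine ranged from -0.22 to 0.24. Limma and limma voom called 0 of them, and 0 had an unadjusted p under 0.05. Of the 9, 6 were below 0 and 2 had groups apart with the knockout lower.

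**Figure D1:**
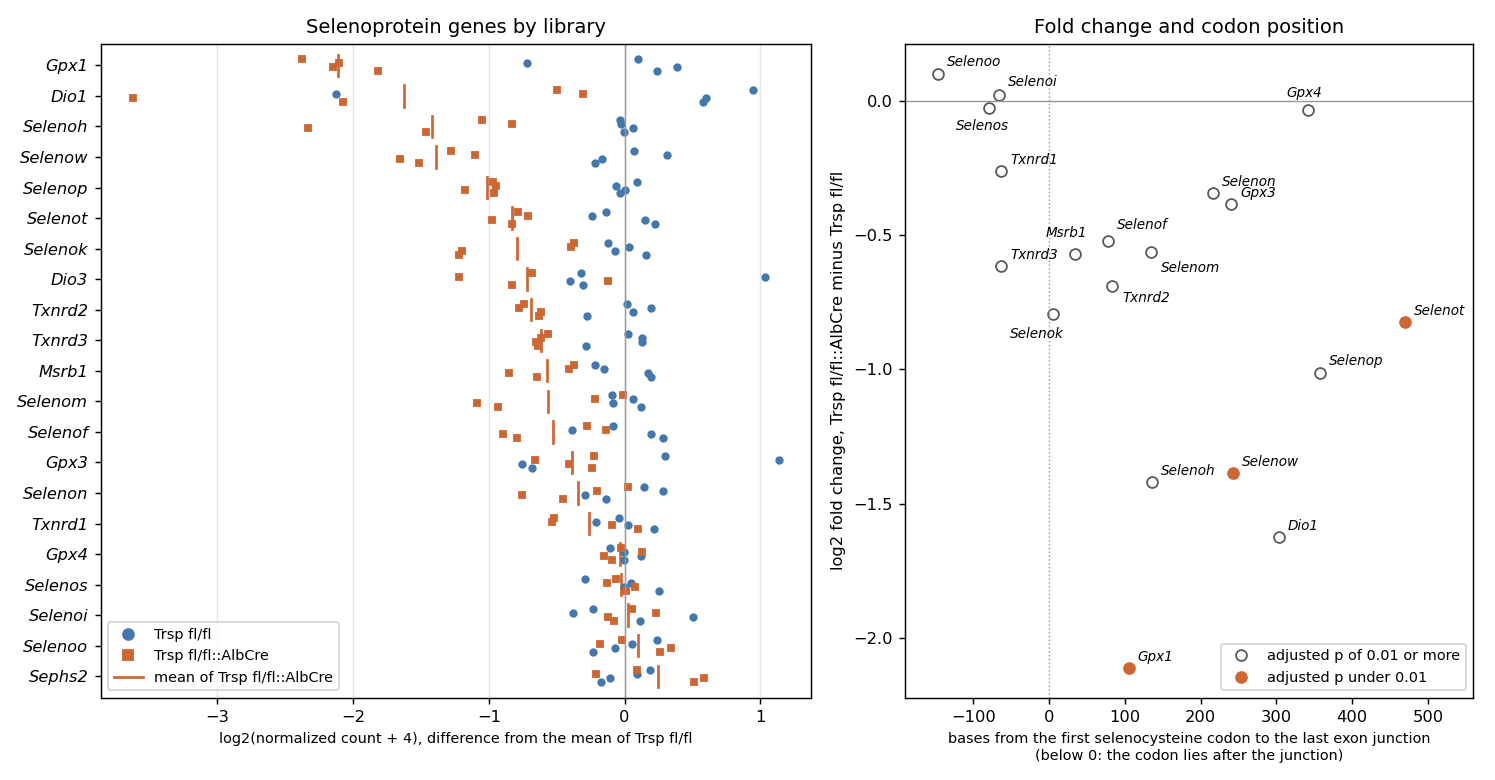
The left panel shows the 21 tested selenoprotein genes as the difference of each library from the Trspfl/fl mean on the log2 scale, circles for Trspfl/fl and squares for Trspfl/fl::AlbCre, with a bar at the knockout mean. The right panel plots the log2 fold change against the bases from the first selenocysteine codon to the last exon junction for the genes with more than 1 exon; Gpx1 is lowest at -2.11, and Gpx4 lies at -0.03.

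Several glutathione S-transferase genes rose. These enzymes conjugate glutathione to electrophiles. Of 22 tested, 6 rose and none fell, 13 had groups apart with the knockout higher, and the median log2 fold change was 0.73. Gsta1 (ENSMUSG00000074183) had 5, 7, 4 and 0 reads in the controls and 1089, 852, 1195 and 704 in the knockouts. It went from nearly no reads to at least 704 in all 4 knockout livers, a 255-fold ratio of mean normalized counts. Its log2 fold change of 7.09 had a standard error of 0.36 (limma adjusted p = 2.7e-08).

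Gm3776, beside it on chromosome 9, had 3, 1, 7 and 5 reads in the controls and 804, 677, 959 and 483 in the knockouts. The coding sequences of Gsta1 and Gm3776 are 99.7% identical over 669 bases, and that of Gsta2 is 98.1% identical to Gsta1. Reads of these 3 genes could be divided between copies by the counting, so the separate values are uncertain. Gsta2 was at 6.46 to 7.62 in the controls and at 10.10 to 11.23 in the knockouts, a change of 3.61 on the log2 scale (standard error 0.43, limma adjusted p = 0.00032).

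In the mu and pi classes Gstm1, Gstm3, Gstp1 and Gstp2 rose. Gstm1 was at 13.59, 13.74, 14.21 and 14.09 in the controls and at 15.97, 15.97, 15.69 and 15.83 in the knockouts (1.96, limma adjusted p = 0.0033). Gstm1 was not called with limma voom. It was also lost without Trspfl/fl replicate 1 or 2 and without Trspfl/fl::AlbCre replicate 1, 2 or 4, with limma adjusted p up to 0.018 and log2 fold changes from 1.85 to 2.06. Gstm3 was at 10.06 to 10.35 in the controls and at 12.99 to 13.31 in the knockouts, a 7.54-fold ratio of mean normalized counts. Gstp1 was at 11.29 to 12.32 in the controls and at 13.68 to 13.91 in the knockouts (2.07, limma adjusted p = 5.9e-05), and its neighbour Gstp2, 98.1% identical in coding sequence, had 16 to 33 reads in the controls and 77 to 128 in the knockouts. Gsta4 and Gstm4, which were chosen after their values were seen, had groups apart but limma adjusted p of 0.01 and 0.012, at log2 fold changes of 1.32 and 1.86. Gsta4 was called (limma adjusted p = 0.0016) without the library whose sex goes against its label.

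Of 32 tested enzymes of quinones, carbonyls and aldehydes, 6 rose and none fell, and the list median was 0.29. Nqo1 (ENSMUSG00000003849), the quinone reductase used as a standard readout of NRF2, was at 7.35, 7.57, 7.21 and 7.37 in the controls and at 10.16, 9.40, 9.73 and 9.29 in the knockouts. The controls lay close together and every knockout was higher, a change of 2.27 on the log2 scale (standard error 0.21, limma adjusted p = 3e-05). Aox1, aldehyde oxidase, was at 8.20 to 8.96 in the controls and at 10.81 to 11.45 in the knockouts. Ephx1, the microsomal epoxide hydrolase, was at 10.26 to 10.91 and at 12.48 to 13.10. Pir, which encodes pirin, rose by 1.09 (limma adjusted p = 0.00066).

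The carbonyl reductases Cbr1 and Cbr3 both rose, and differed in how even the knockouts were. Cbr1 was at 9.82 to 10.49 in the controls and at 12.08, 11.51, 11.48 and 11.19 in the knockouts (1.53, limma adjusted p = 0.00061). Cbr3 had 7, 8, 14 and 4 reads in the controls and 368, 83, 178 and 59 in the knockouts, with a change of 3.64 on the log2 scale (standard error 0.43, limma adjusted p = 0.00031). Cbr3 was not called with limma voom, and neither gene was called with only these 8 libraries in the fit. In both genes Trspfl/fl::AlbCre replicate 1 was the highest library.

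Other called genes serve conjugation, peroxide repair and transport. Ugdh, which makes the UDP-glucuronate used by glucuronidation, was at 9.40 to 9.99 in the controls and at 11.72 to 12 in the knockouts (2.27, limma adjusted p = 5.1e-05). It was the 1 called gene of 20 tested in the glucuronidation list, whose median was 0.65 and in which 18 of 20 were above 0. Among the transferases Ugt2b35 had 1.30 (limma adjusted p = 0.024) and Ugt1a6a 1.28 (limma adjusted p = 0.054), with groups apart. Srxn1, sulfiredoxin, which restores overoxidized peroxiredoxins, was at 9.02, 8.70, 8.56 and 8.91 in the controls and at 10.26, 10.08, 10.31 and 10.21 in the knockouts (1.42, standard error 0.13, limma adjusted p = 3e-05). It was the 1 called gene of 23 tested thioredoxin, peroxiredoxin and superoxide enzymes, a list with a median of 0.10.

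Abcc4, an efflux pump for organic anions, was at 6.71 to 7.72 in the controls and at 8.95 to 10.05 in the knockouts (2.42, limma adjusted p = 5.1e-05). Its relative Abcc3 was at 10.23, 10.32, 11.41 and 11.67 in the controls and at 13.40, 13.12, 12.21 and 12.59 in the knockouts, groups that were apart at a limma adjusted p of 0.022. Abcg2, another efflux pump, was called in no direction because its change was under 2-fold (0.76, limma adjusted p = 0.0055). Abcc4 was the 1 called gene of 21 tested drug and bile acid transporters. The median of that list was 0.11, with 3 genes apart with the knockout higher and 6 below 0. The zinc importer gene Slc39a5 was at 5.81 to 6.36 in the controls and at 7.93 to 9.0 in the knockouts, and the heme transporter gene Slc48a1 rose by 1.18 (limma adjusted p = 0.0005), a call that was lost with only these 8 libraries.

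Several called genes fall in none of the redox lists. Vtcn1, which encodes the co-inhibitory protein B7-H4, had 5, 3, 5 and 1 reads in the controls and 119, 40, 101 and 82 in the knockouts, a change of 3.62 on the log2 scale (standard error 0.29, limma adjusted p = 9.7e-06). Htatip2, an oxidoreductase-like protein, rose by 1.60, Creg1, a secreted glycoprotein, by 1.17, Thnsl2, a threonine synthase-like protein, by 1.17, the kinase gene Sgk2 by 1.13, Zyg11a, an adaptor of a ubiquitin ligase, by 1.08, and Ldhd, D-lactate dehydrogenase, by 1.02. The limma adjusted p of these 6 genes ranged from 0.00014 for Ldhd to 0.0084 for Zyg11a. Leaving out 1 library at a time gave Zyg11a a log2 fold change of 0.95 to 1.22 and a limma adjusted p of up to 0.041, and it kept its call only without Trspfl/fl replicate 3. Zyg11a was also lost with no filter on low values and with the 8 libraries alone, and Creg1 with the 8 libraries alone. Ldhd, at 0.97 to 1.10 in the same fits, dropped below the fold threshold without Trspfl/fl replicate 3 or 4 or Trspfl/fl::AlbCre replicate 1 or 4, and was lost with quantile normalization.

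Genes of unknown function were also among them. Gm4756 had 1, 2, 0 and 0 reads in the controls and 89, 20, 57 and 50 in the knockouts. The long noncoding RNA gene Gm49668 had 8 to 25 reads in the controls and 126, 54, 300 and 308 in the knockouts. Gm49668 was not called with limma voom, with only these 8 libraries or with a pseudocount of 0.1. Gm13370, a processed pseudogene, had 0 reads in every control and 64, 61, 786 and 1322 in the knockouts. Against a floor of 3 reads per library its mean was at least 179-fold higher, and at least 103-fold higher without Trspfl/fl::AlbCre replicate 4. Replicates 3 and 4 were the high ones for both Gm49668 and Gm13370, and Gm13370 was lost under the same 3 alternatives and without any 1 control library or either of these knockouts, with limma adjusted p up to 0.026.

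**Figure D2:**
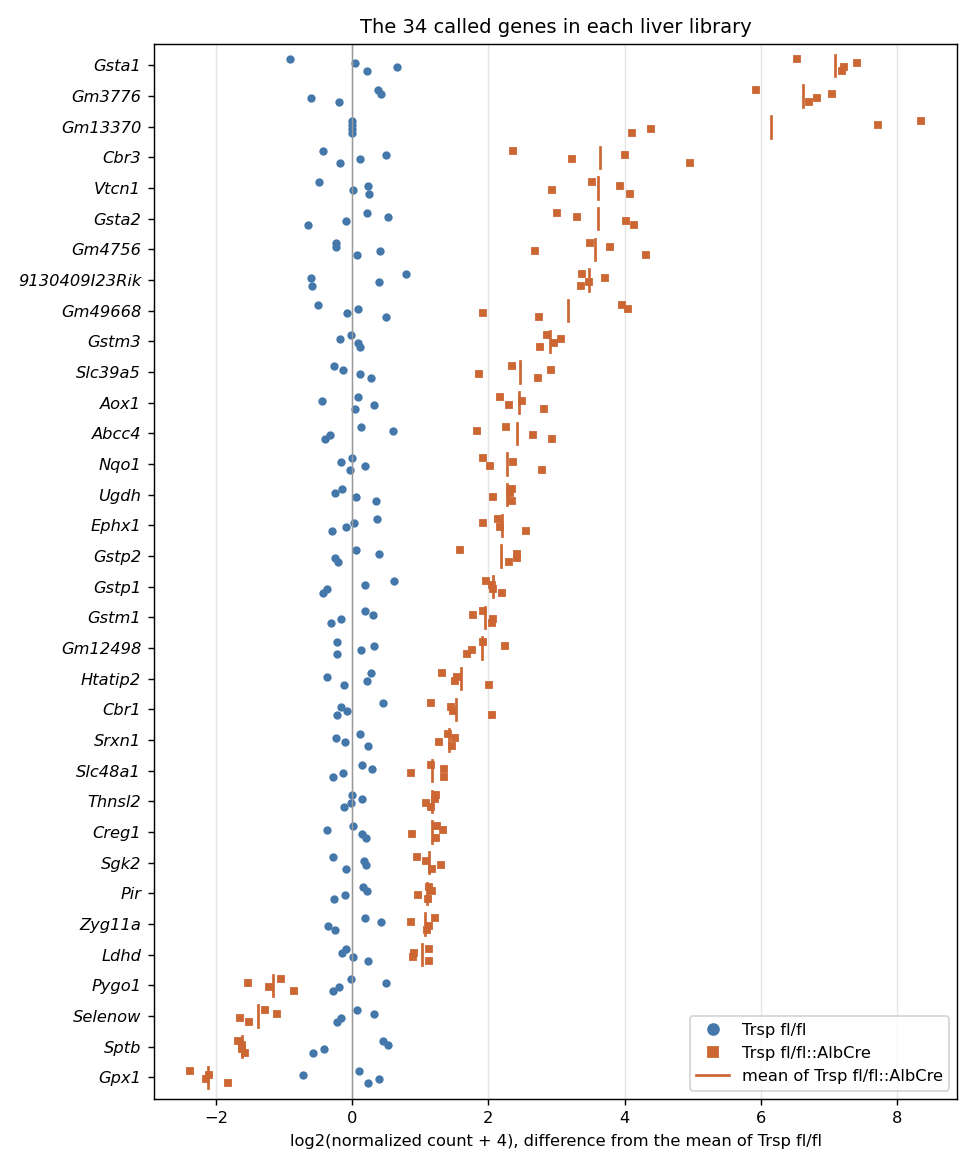
Each row is 1 of the 34 called genes, ordered by fold change, and the horizontal axis is the difference of a library from the Trspfl/fl mean on the log2(normalized count + 4) scale. Circles are the 4 Trspfl/fl libraries, squares the 4 Trspfl/fl::AlbCre libraries and bars the knockout mean; the groups do not overlap in any row, and Gsta1 has the largest difference at 7.09.

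Some called genes lay beside each other. In GRCm38, 12 of the 34 had another called gene within 100000 bases, in 5 neighbourhoods. These were Gsta1, Gm3776 and Gsta2 on chromosome 9, Gstm3, Gstm1 and Gm12498 on chromosome 3, Gstp1 and Gstp2 on chromosome 19, Cbr1 and Cbr3 on chromosome 16, and Ephx1 and 9130409I23Rik on chromosome 1. The share of neighbours expected among all genes tested was not computed, so the count is a description. The Gsta genes and the Gstp genes named here are near copies in coding sequence, and their reads could be divided between copies by the counting. Gm12498, a noncoding RNA gene, lies 320 bases from Gstm1 on the same strand, and had 0, 1, 2 and 0 reads in the controls and 11, 9, 17 and 14 in the knockouts. It was lost with only these 8 libraries, with the other pseudocounts, with a filter of 50 and without Trspfl/fl replicate 1 or Trspfl/fl::AlbCre replicate 3 or 4 (limma adjusted p up to 0.012 without 1 library). 9130409I23Rik, 30332 bases from Ephx1 on the other strand, had 7, 15, 7 and 19 reads in the controls and 158, 133, 192 and 164 in the knockouts.

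The core of the antioxidant response element, which NRF2 binds with small MAF proteins, was searched as the letters TGACNNNGC on both strands of RefSeq promoter windows (GRCm38.p6, 300 bases around the start site). Of the 30 genes that rose, 24 had a window and 7 of these held it (29.2%), namely Srxn1, Abcc4, Ugdh, Htatip2, 9130409I23Rik, Pir and Slc39a5. It stood in 16.4% of tested genes with a window and in 12.4% of all windows. The stricter letters TGACTCAGC, which are one case of the first and were added after the values were seen, stood in 2 of the 24 and in 0.513% of tested genes. Those 2 windows, of Pir at chrX:164269181-164269480 and Htatip2 at chr7:49759262-49759561, both on the plus strand, are printed because they hold the stricter letters. Capitals mark every match to TGACNNNGC or its reverse complement.
Pir: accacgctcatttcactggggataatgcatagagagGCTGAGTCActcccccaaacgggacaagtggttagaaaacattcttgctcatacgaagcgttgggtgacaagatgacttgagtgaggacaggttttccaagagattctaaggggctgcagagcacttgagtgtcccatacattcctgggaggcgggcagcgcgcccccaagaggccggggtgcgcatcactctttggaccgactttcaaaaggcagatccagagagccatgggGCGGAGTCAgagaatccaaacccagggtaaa
Htatip2: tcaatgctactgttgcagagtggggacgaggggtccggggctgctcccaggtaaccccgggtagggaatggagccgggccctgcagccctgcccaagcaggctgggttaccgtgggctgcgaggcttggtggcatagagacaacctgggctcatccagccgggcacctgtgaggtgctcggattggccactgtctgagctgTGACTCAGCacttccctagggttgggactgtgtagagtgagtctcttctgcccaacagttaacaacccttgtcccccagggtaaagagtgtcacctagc
In Pir the matches begin 214 bases before the start site, where the letters are the reverse complement of TGACTCAGC, and 19 after it. In Htatip2 the match begins 49 bases before the start of this window's transcript, which is 1 of its 2 annotated starts with a match. A match to letters is not a bound site, and binding was not measured here.

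Over the NRF2 target list as a whole, 14 of 41 tested genes rose and none fell, 28 had groups apart with the knockout higher, 38 were above 0 and the median log2 fold change was 1.13. The 14 were all described above, so these counts are not a separate result. The list was also chosen with earlier results of these data known. The mean level of the list was 9.98 to 10.09 in the 4 controls and 11.30 to 11.60 in the 4 knockouts. Other members were not called. Gclc, the catalytic subunit of the first enzyme of glutathione synthesis, was at 11.98, 11.84, 11.26 and 10.97 in the controls and at 12.95, 12.41, 12.71 and 12.51 in the knockouts (1.13, limma adjusted p = 0.062), apart but not called. Its partner Gclm had 0.31 (limma adjusted p = 0.49). Gsr, glutathione reductase, had 0.70 (limma adjusted p = 0.027), and of 18 tested genes of glutathione synthesis and recycling none was called by limma or limma voom, 7 had an unadjusted p under 0.05 and 6 had groups apart with the knockout higher. Txn1, thioredoxin, had 0.30 (limma adjusted p = 0.44).

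Me1 and Hmox1, both textbook NRF2 targets, were uneven among the knockout livers. Me1, malic enzyme, which supplies NADPH, was at 9.56, 9.79, 8.89 and 9.0 in the controls and at 10.12, 9.40, 11.70 and 11.54 in the knockouts (1.38, limma adjusted p = 0.20). Hmox1, heme oxygenase, was at 9.52, 9.57, 8.90 and 9.96 in the controls and at 11.67, 10.45, 9.35 and 9.01 in the knockouts (0.63, limma adjusted p = 0.65). Me1 was highest in replicates 3 and 4 and Hmox1 in replicates 1 and 2. None of 13 tested NADPH supply genes was called by limma or limma voom or had groups apart, and 2 had an unadjusted p under 0.05.

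None of the 17 tested genes in the list of KEAP1 and NRF2 regulators was called, by limma or limma voom, and 5 had an unadjusted p under 0.05. Keap1 had 0.10 (limma adjusted p = 0.82). Nfe2l2, the NRF2 gene, was at 9.88, 9.74, 9.64 and 9.59 in the controls and at 9.50, 9.51, 9.13 and 8.72 in the knockouts (-0.50, limma adjusted p = 0.23). Sqstm1, which encodes p62, a selective autophagy receptor that binds KEAP1, had 0.74 (limma adjusted p = 0.0077), under 2-fold.

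Metabolic lists held no gene called by limma or by limma voom. Of 62 tested cytochrome P450 genes 7 had an unadjusted p under 0.05, and the list median was 0.15. Cyp2a5, a P450 that is also in the NRF2 list, was at 12.08, 12.29, 13.79 and 14.80 in the controls and at 16.14, 16.22, 15.26 and 15.47 in the knockouts (2.53, standard error 0.59, limma adjusted p = 0.078). Its groups were apart, but the controls spanned more than the distance between the nearest libraries of the groups. Ces2c, a carboxylesterase, had 3.04 at a limma adjusted p of 0.01, just outside the threshold, with 8.14, 6.80, 9.42 and 9.81 in the knockouts and 5.03 to 6.06 in the controls. The list medians were 0.15 for fatty acid oxidation, 0.31 for the urea cycle and amino acid breakdown, 0.14 for bile acid synthesis and 0.11 for gluconeogenesis and glycolysis.

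**Figure D3:**
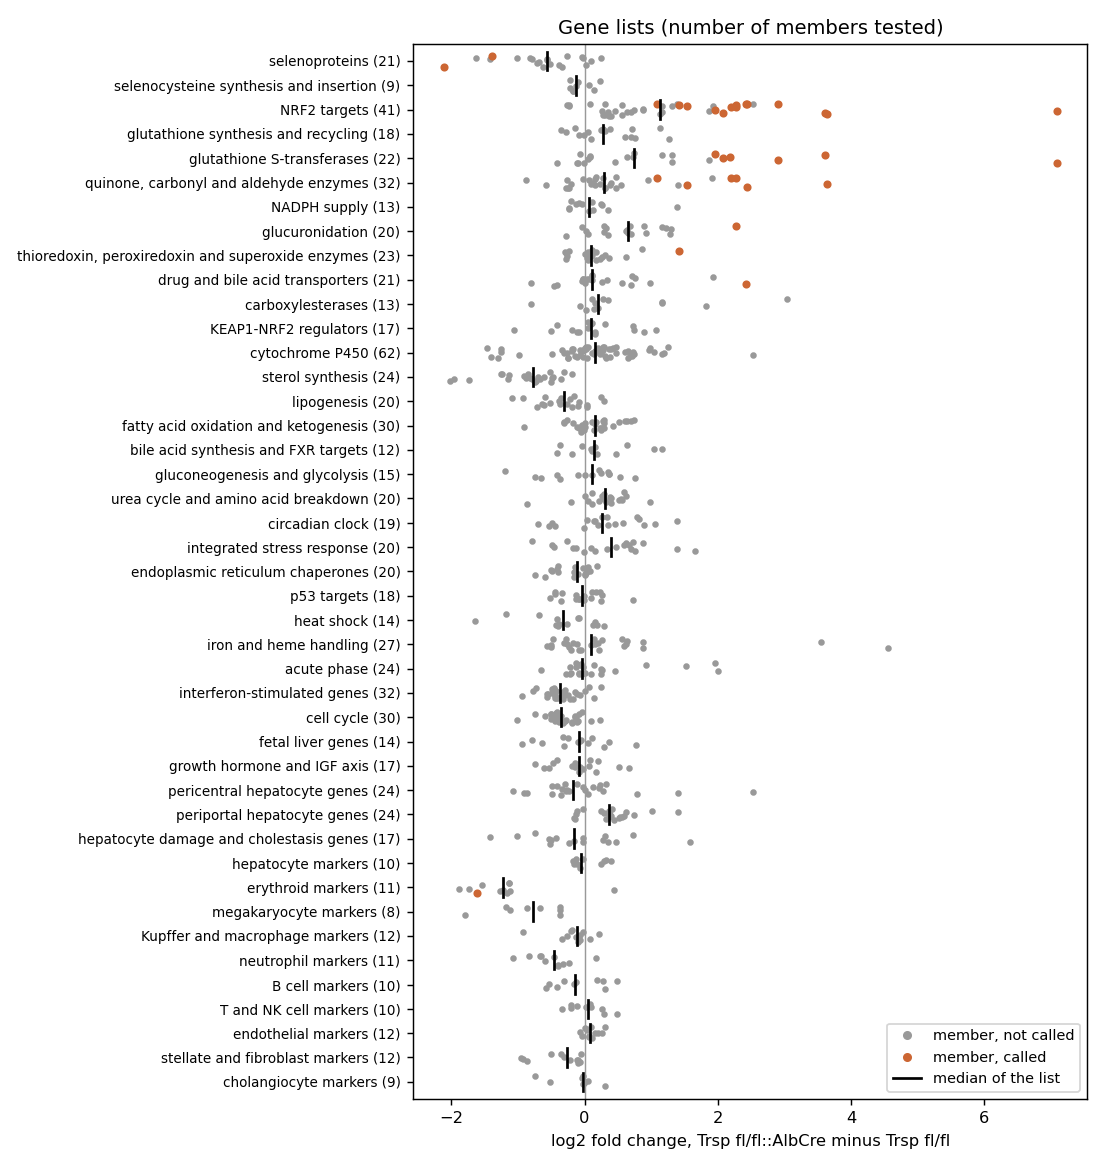
Each row is a gene list with the number of members tested, each point is 1 member placed at its log2 fold change (Trspfl/fl::AlbCre minus Trspfl/fl), coloured where called, and the vertical bar is the list median. The called members stand in the selenoprotein, NRF2 target and related redox lists and in the erythroid markers, and the NRF2 target median is 1.13.

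Some lists varied among mice of 1 genotype by more than between genotypes. The median within-group SD of a gene was 0.30 over all genes tested, 0.31 for the NRF2 targets and 0.29 for the selenoproteins. It was 1.33 for sterol synthesis, 0.99 for the circadian clock, 0.95 for the cell cycle and 0.67 for lipogenesis. The mean level of the 24 sterol synthesis genes was 10.96, 11.06, 10.83 and 8.66 in the controls and 7.89, 8.29, 10.83 and 11.00 in the knockouts. Trspfl/fl replicate 4 and Trspfl/fl::AlbCre replicates 1 and 2 were thus low, and the other 5 libraries nearly level. All 24 genes had a log2 fold change below 0, with a median of -0.77, and none was called by limma (smallest adjusted p 0.45) or limma voom, with 1 at an unadjusted p under 0.05.

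Lipogenesis followed the same libraries, with means of 10.73, 10.66, 10.97 and 9.90 in the controls and 9.40, 9.69, 10.87 and 10.96 in the knockouts. Fasn, fatty acid synthase, ranged from 11.49 to 13.64 in the controls and from 10.52 to 12.74 in the knockouts (-1.09, limma adjusted p = 0.42). The cell cycle list was at 6.98 to 8.06 in the controls, at 6.38 and 5.96 in knockout replicates 1 and 2 and at 8.12 and 8.21 in replicates 3 and 4. In the clock list, Nr1d1, which encodes the repressor REV-ERBα, was at 6.20, 8.95, 9.21 and 9.58 in the controls and at 8.36 to 10.67 in the knockouts. The cause of the spread between mice was not tested.

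**Figure D4:**
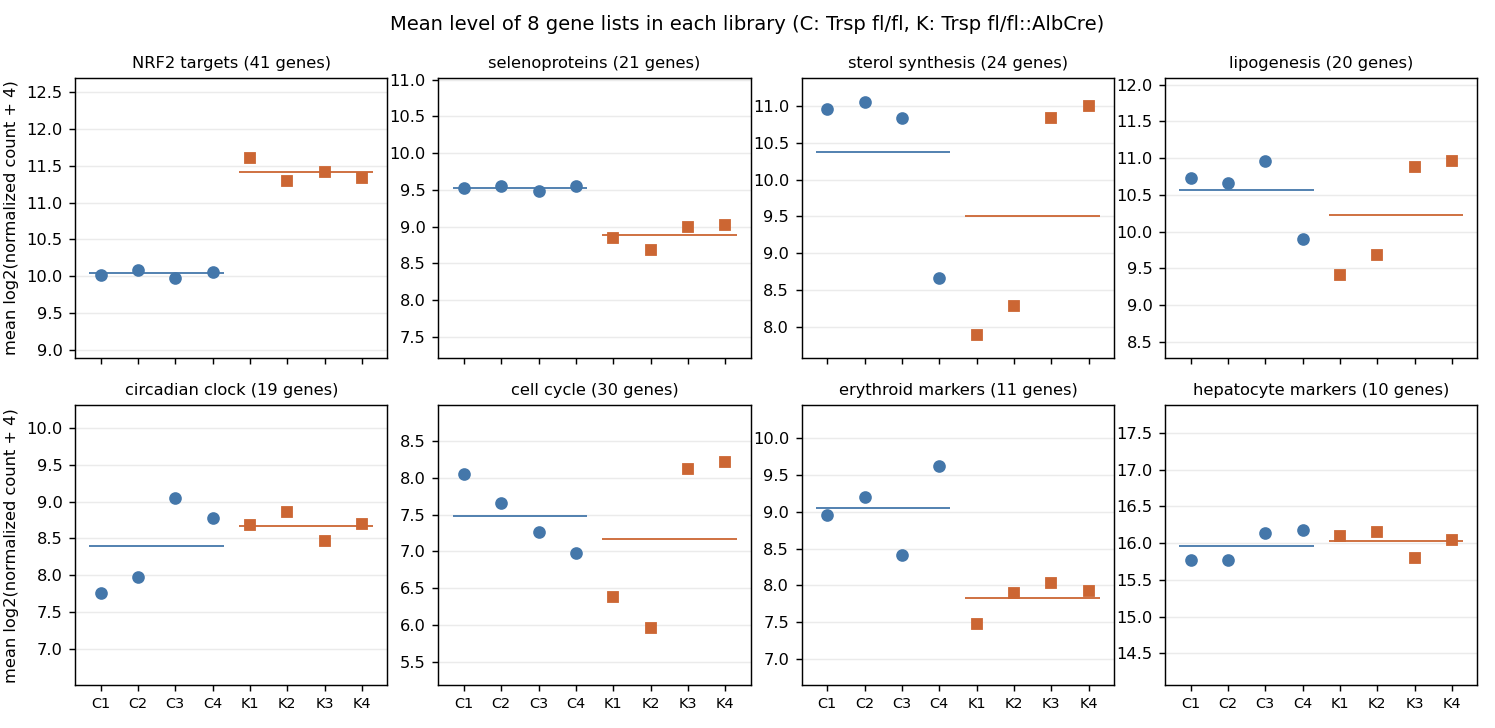
Each panel gives the mean log2(normalized count + 4) over the tested members of a list in each library, with circles for the 4 Trspfl/fl and squares for the 4 Trspfl/fl::AlbCre libraries, lines at the group means and the same height of scale in every panel. The NRF2 target and selenoprotein groups are apart, while sterol synthesis spans 7.89 to 11.00 within the knockouts alone.

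Among blood cell markers 1 gene fell. Sptb (ENSMUSG00000021061), which encodes erythrocyte beta-spectrin, was at 7.18, 7.35, 8.29 and 8.22 in the controls and at 6.19, 6.15, 6.14 and 6.09 in the knockouts, and fell by 1.62 (standard error 0.27, limma adjusted p = 0.0084). It was the 1 gene called of 11 tested erythroid markers, of which 6 had groups apart with the knockout lower and 10 were below 0, with a median of -1.23. The summed normalized count of the 14 erythroid markers in the table was 34243 to 64956 in the controls and 14936 to 35336 in the knockouts, and none was at 0 in all libraries. In whole liver, fewer erythroid cells and less RNA per cell cannot be told apart. Sptb was called in 9 of 22 fits, a count that includes the main fit and the same fit at an adjusted p under 0.05. A main call cannot be lost in either. Sptb was not called with limma voom, quantile normalization, scaling by library totals, eBayes without trend or the 8 libraries alone. It was also lost without Trspfl/fl replicate 2, 3 or 4 and without any 1 knockout library, with log2 fold changes from -1.81 to -1.44 and limma adjusted p up to 0.03.

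The other marker lists held no gene called by limma or limma voom, with at most 1 gene per list at an unadjusted p under 0.05. Megakaryocyte markers had a median of -0.77, with all 8 tested below 0, and their mean level was highest in Trspfl/fl replicate 4 at 6.37 against 4.42 to 5.34 in the other controls. Neutrophil markers were also highest in that library, at 6.73 against 4.69 to 5.24 in the other 7. The medians were -0.11 for Kupffer and macrophage, 0.08 for endothelial, -0.26 for stellate and fibroblast and -0.03 for cholangiocyte markers. The last gene that fell was Pygo1, a coactivator of Wnt signalling, at 5.91 to 6.69 in the controls and 4.67 to 5.34 in the knockouts (-1.16, limma adjusted p = 0.0073). Pygo1 was not called with limma voom, quantile normalization or the 8 libraries alone. It was also lost without Trspfl/fl replicate 2, 3 or 4, without Trspfl/fl::AlbCre replicate 2, 3 or 4 and without Keap1C226SC613Shomo::Trspfl/fl::AlbCre replicate 1, with log2 fold changes from -1.26 to -1.0 and limma adjusted p up to 0.028.

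The effect of Trsp deletion was set beside that in livers whose KEAP1 carries the C226S and C613S substitutions, by an interaction term in the same limma fit. Of 15781 genes, 9 passed (0.0570%), 4 with a more negative and 5 with a more positive effect in the mutant. With the low-value filter applied within the 8 libraries of the comparison, the more positive count was 0 by limma (807 at an unadjusted p under 0.05). The more negative count was then 3. The more positive count was 6 with no filter on low values and 4 with limma voom, so these calls did not need the filter over all 16 libraries. None passed once the filter was applied within the 8 libraries, and the more positive genes are not read as a result about the livers compared here. Among the 34 genes called with normal KEAP1, which were chosen on 1 arm of this contrast, Gsta1, Gm3776 and Vtcn1 passed. Within the 8 libraries these 3 genes reached the low-value filter only in the knockouts, so their passing is a description and not a separate result. Vtcn1 had a log2 fold change of 3.62 with normal and -0.23 with substituted KEAP1, an interaction of -3.84 (standard error 0.41, limma adjusted p = 0.00025). For Nqo1 the changes were 2.27 and 1.13, and their difference did not pass (-1.14, standard error 0.29, limma adjusted p = 0.24). For Gpx1 they were -2.11 and -1.84, a difference of 0.27 (standard error 0.30, limma adjusted p = 0.75). Without Keap1C226SC613Shomo::Trspfl/fl::AlbCre replicate 1 the interaction counts were 5 and 6, and Gsta1, Gm3776 and Vtcn1 passed at -5.30, -5.25 and -3.89 (limma adjusted p of 0.00023, 0.00082 and 0.00057). Nqo1 and Gpx1 had interactions of -1.20 and 0.30 without it and did not pass.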

How the data were processed

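Whole-liver RNA of 16 mice, all labelled male, was sequenced, and the 8 libraries of the Trspfl/fl and Trspfl/fl::AlbCre groups, assigned by their titles, were compared. The methods of the study name rRNA depletion, paired-end sequencing, Salmon with GENCODE mouse transcripts, TPM and the iDEP platform. The table the authors deposited holds log2 values of another construction: 2 to the power of the value, minus 4, was a whole multiple of 1 step per library for 100% of low values (tolerance 0.1 read), and the inverse steps equalled median-of-ratios size factors to within 1.9e-05. Of 18578 rows, 369 without a gene identifier, with 0.274% to 0.544% of the reads of the 8 libraries, stayed out. No row was under 0.5 CPM in all libraries (the lowest maximum was 0.515), and genes below it were not analysed here.

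All 16 libraries entered 1 limma fit (3.58.1, R 4.3.3; lmFit, contrasts, eBayes with trend) with a mean per genotype, after removal of genes that did not reach a normalized count of 10 in 4 libraries. Within the 8 libraries compared, the called genes Gsta1, Gm3776, Vtcn1, Gm4756, Gm13370 and Gm12498 reached that count only in the knockouts. Fold changes on this scale understate those of weakly expressed genes. The counts per gene are recovered reads. At this depth counting error is small for most genes, and the labels say only that samples are separate, so p-values measure the spread between them. In simulated data for this comparison (15468 genes), 200 of 200 changed genes were called in the right direction and 2 unchanged genes were called. The planted changes were well over the fold threshold, with log2 changes of up to 3. They were placed only in genes well above the filter, and every gene had the same dispersion. The simulation therefore cannot say how often smaller changes, weakly expressed genes or more variable genes are missed. No 2 libraries were identical. Pearson correlations across genes, which are not independent replicates, were 0.9476 to 0.9825 within groups and 0.9462 to 0.9737 between groups.

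Genes named were all called genes, the selenoprotein genes, in each list up to 4 members with the smallest p, 8 genes fixed by name and the 5 uncalled genes with the smallest adjusted p (Selenot, Tarbp1, Abcg2, Ppfibp2 and Sqstm1). Not every gene so chosen is printed. The members and lists were chosen with earlier results of these data known, so list counts are descriptions. For a symbol with several rows, the row with the highest mean stood for it. Of 883 list entries, 862 were in the table. Sequences came from GENCODE M21 (GRCm38) and RefSeq (GRCm38.p6); the build of the deposited values may differ, and only gene identity was matched between them. Alternatives were other pseudocounts, filters, scalings, eBayes without trend, a replicate block, limma voom on the recovered reads, an adjusted p under 0.05, the 8 libraries alone and each library left out. Tables and plots used Python 3.11.15, pandas 2.3.3, numpy 2.4.6 and matplotlib 3.10.9.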

Additional observations from a re-analysis of the deposited data

Results flagged for a closer look

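In 132 groups of 4 libraries examined for the called genes, selenoproteins and genes fixed by name, 7 had 1 library apart from the others by Dixon's ratio, where chance gives about 6.6. In Trspfl/fl replicate 3, Dio1 was at 7.64 against 10.34 to 10.71 in the other controls, Dio2 at 4.78 against 2.0 in each of the others, and Dio3 at 4.87 against 3.44 to 3.54. All 3 encode deiodinases of thyroid hormone. In Trspfl/fl::AlbCre replicate 2, Selenop was at 15.32 against 15.53 to 15.55 and Ugdh at 11.72 against 11.97 to 12. Gstp2 was at 6.32 in Trspfl/fl::AlbCre replicate 4 against 7.03 to 7.15, and Tarbp1, an RNA methyltransferase gene, at 7.78 in Trspfl/fl replicate 4 against 8.05 to 8.09.

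The knockout effect was smaller with substituted KEAP1 by the interaction term for Gsta1 (-5.21 on the log2 scale), Gm3776 (-5.19) and Vtcn1 (-3.84), with limma adjusted p of 7.2e-05, 0.00031 and 0.00025. The control libraries with normal KEAP1 had 0 to 7 reads for each of these 3 genes, and with a pseudocount of 0.1 no gene passed the interaction by limma, with 817 more negative and 851 more positive at an unadjusted p under 0.05.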

How the results depend on the processing

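Of the 34 called genes, 19 were called in each of 22 fits, the 8 libraries with a block not counted, 17 of them among the 30 higher. The 22 include the main fit and the same fit at an adjusted p under 0.05, where a main call cannot be lost. The counts of higher and lower genes were 25 to 33 and 3 to 6 across other pseudocounts, filters and scalings, eBayes without trend, limma voom and the 8 libraries alone. Similar counts do not mean the same genes: the 8 libraries alone gave 25 higher and 3 lower, and 24 of these were among the 34. At an adjusted p under 0.05, 50 were higher and 10 lower. Leaving out 1 library gave 26 to 32 higher and 2 to 4 lower, with 2 lower without Trspfl/fl replicate 2 or Trspfl/fl::AlbCre replicate 4. The median log2 fold change of all genes was -0.0169 to -0.0056 across the scalings.

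The replicate numbers were checked for pairing. Deviations of same-numbered libraries correlated at -0.16, -0.18, -0.12 and -0.32, and those of different-numbered libraries at -0.335 to 0.327. The check gave no sign that the numbers pair the mice. It cannot exclude pairing, since deviations from a mean of 4 libraries depend on each other. With the replicate number as a block, 28 genes were higher and 3 lower, and Gstm1, Gstm3, Zyg11a, Pygo1 and Sptb were not called. In the 8 libraries alone with that block, which was chosen after seeing the data, 3 genes were higher (Gsta1, Gm3776 and Gstm3) and 0 lower by limma, with 625 higher and 530 lower at an unadjusted p under 0.05.

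The interaction counts (4 more negative, 5 more positive) became 0 and 0 by limma with a pseudocount of 0.1, with 817 and 851 at an unadjusted p under 0.05. The more negative count was 2 with a pseudocount of 1, 1 with limma voom and 9 at an adjusted p under 0.05, and 3 to 5 without 1 library. The more positive count was 3 with a filter of 50, 0 by limma with a filter within the 8 libraries (807 at an unadjusted p under 0.05), which was chosen after seeing the data, and 5 to 7 without 1 library. With no filter on low values it was 6, and with limma voom 4. The cause was not tested. The sign of some genes near 0 turned: without 1 library Gpx4 ranged from -0.09 to 0.01, Selenoi from -0.11 to 0.19, Selenos from -0.13 to 0.06 and Keap1 from -0.00 to 0.18, and with quantile normalization Selenoi was at -0.02. The edgeR and DESeq2 alternatives were not run, since the deposited unit is log2. Genes with few control reads, such as Gm12498, Gm4756 and Vtcn1, were lost with a pseudocount of 0.1, and depth limits their fold changes.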

Other observations

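Hamp and Hamp2, which encode hepcidins that control iron release, were among the most uneven genes and were chosen after their values were seen. Hamp2 had 2, 1, 833 and 1 reads in the Trspfl/fl libraries and 87, 1688, 201 and 856 in Trspfl/fl::AlbCre. Trspfl/fl replicate 3 was thus inside the knockout range while the other controls had almost none. Hamp had 0, 0, 287 and 3 reads in the controls and 12, 933, 52 and 529 in the knockouts. Neither was called (log2 fold changes of 4.55 and 3.54, with limma adjusted p of 0.26 and 0.34). Of 27 tested iron and heme genes none was called by limma or limma voom, and 6 had an unadjusted p under 0.05. The ferritin subunit genes Ftl1 and Fth1 had groups apart, at 0.88 and 0.56 (limma adjusted p = 0.022 and 0.025).

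Socs3, a feedback inhibitor of cytokine signalling, was at 6.34 and 6.37 in knockout replicates 1 and 2 and at 9.55 and 9.47 in replicates 3 and 4, against 6.89 to 7.19 in the controls (limma adjusted p = 0.64). The smooth muscle actin gene Acta2 was at 4.82, 5.52, 7.32 and 8.0 in the knockouts and at 6.99 to 7.78 in the controls. Desmin, Des, was at 10.27 in Trspfl/fl replicate 3 against 5.97 to 7.28 in the other 7 libraries. None of 20 tested integrated stress response genes was called by limma or limma voom, with a median of 0.40 and 4 at an unadjusted p under 0.05. Trib3, a pseudokinase induced by that response, was at 5.26 to 7.22 in the controls and at 7.25 to 8.25 in the knockouts (1.38, limma adjusted p = 0.19). The interferon list had a median of -0.36, with mean levels of 7.03 to 7.98 in the controls and 6.54 to 7.68 in the knockouts, and none of its 32 tested genes was called by limma or limma voom, with 2 at an unadjusted p under 0.05.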
